A study of Homo sapiens and Mus musculus with 29 samples.

Results

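Levels of mRNA were examined for the enzymes that build mucin-type O-glycans and Lewis antigens, in pancreatic tumors and metastases grown from HPAF-II cells. A list of 45 genes was matched by symbol to the RPKM table (reads per kilobase of gene, scaled to the depth of the library), and the 36 whose mean over 21 libraries reached 0.3 RPKM were taken as the set. The table holds 58719 genes, of which 19900 passed the same minimum and were tested. By step of synthesis, 11 of the 36 enzymes start the glycan, 2 make core 1 (a transferase and its chaperone), 2 add branches, 6 extend the chain, 6 add sialic acid, 6 add fucose and 3 add a capping sugar or sulfate.

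Mucin-type O-glycans begin when a polypeptide GalNAc-transferase (GALNT) attaches GalNAc to serine or threonine of a protein such as a mucin, giving the Tn antigen. C1GALT1, which needs its chaperone C1GALT1C1 (COSMC), adds galactose to make core 1, and further enzymes branch and extend the chain. Sialic acid placed on Tn by ST6GALNAC1 makes sialyl-Tn and ends the chain, while sialic acid and fucose on longer chains make Lewis antigens. Sialyl Lewis a, the antigen of the CA 19-9 blood test for pancreatic cancer, needs the fucosyltransferase FUT3.

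HPAF-II is an established human line of the classical subtype of pancreatic ductal adenocarcinoma. The labels read CRISPR Cas-9 or CRISPR HNF4G KO, each with EV or FOXA1, and give FOXA1 overexpression as lentiviral. By the study's methods Cas9 was given as a protein with guide RNA, and so need not persist. EV is called the empty vector here. Cells were injected into the pancreas of NSG mice about 8 weeks old, which lack functional lymphocytes. There were 3 control tumors (Cas-9-EV), 3 tumors labeled FOXA1-OE (Cas-9 with overexpressed FOXA1), 4 tumors and 2 metastases labeled HNF4G-KO (HNF4G KO with the empty vector). The label HNF4G-KO + FOXA1-OE covered 5 tumors and 4 metastases, where tumors 2 and 3 came from the same mouse. The HNF4G-KO cells were a pool of 3 clones with frameshift mutations, so that what the clones share beside the edit cannot be told apart from it. The comparisons address how loss of HNF4G, gain of FOXA1 and spread from the pancreas change the tumors.

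Depth, read from the steps of low RPKM values, was 33.1 to 69.6 M per library (median 54.5 M) if the finer of 2 step sizes is 1 read, and 16.6 to 34.8 M (median 27.3 M) if the more common step is. The values alone do not settle which. The epithelial markers EPCAM, KRT8, KRT18, KRT19, CDH1 and CLDN4 summed to between 2740 and 5240 RPKM in every library. HNF4G mRNA went against the label, with a mean of 2.84 RPKM in control tumors (SD 0.547, n = 3) and, with HNF4G-KO as the label, of 7.09 RPKM (SD 1.10, n = 4). A frameshift need not lower an mRNA, so this level does not check the edit. FOXA1 was at 6.32 and 8.18 RPKM in tumors 1 and 2 labeled FOXA1-OE and at 0.763 RPKM in tumor 3, within the 0.519 to 0.932 RPKM of control tumors. HNF4G was also low in tumor 3, at 0.495 RPKM, where tumors 1 and 2 were at 3.04 and 2.26 RPKM. Tumor 3 labeled FOXA1-OE was also the lowest of all 15 primary tumors for 18 of the 36 enzymes. The same count was not made over all genes, so it is not shown to be particular to the enzymes. In primary tumors FOXA1 was at 1.26 to 1.87 RPKM with the label HNF4G-KO and at 4.65 to 23.1 RPKM with HNF4G-KO + FOXA1-OE. In metastases labeled HNF4G-KO + FOXA1-OE it was at 17.9 RPKM in metastasis 2 and at 0.535, 1.30 and 1.55 RPKM in the others. HNF4G was at 1.69 RPKM in tumor 5 labeled HNF4G-KO + FOXA1-OE and at 3.94 to 7.09 RPKM in the other tumors of this label. The labels were kept as given.

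The enzymes covered a wide range of levels, and RPKM values are per length, so that genes can be set side by side. The highest was B3GNT3, which extends core 1 with GlcNAc, at 59.9 ± 2.79 RPKM (SD, n = 3) in control tumors. ST3GAL1, which puts sialic acid on core 1, was at 45 ± 6.26 RPKM and C1GALT1C1 at 38.7 ± 5.07 RPKM in the same tumors. Among the 11 initiating enzymes, GALNT5 led at 19.6 ± 2.50 RPKM, and GALNT6, GALNT2, GALNT10, GALNT3, GALNT1, GALNT7 and GALNT12 followed in this order from 13.7 down to 9.74 RPKM, a range in which neighbors did not differ beyond their SD. GALNT11, GALNT18 and GALNT14 were at most at 1.81 RPKM. Among fucosyltransferases, FUT8, which adds the core fucose of N-glycans, was at 15.5 ± 1.37 RPKM and FUT2 (the secretor enzyme) at 12.8 ± 1.40 RPKM. FUT4 was at 6.73, 6.11 and 5.40 RPKM in control tumors 1, 2 and 3, and FUT3 was at 5.08 ± 3.70 RPKM. Control tumor 3 had FUT3 at 9.33 RPKM, while control tumors 1 and 2 were at 2.53 and 3.38 RPKM.

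Of the list, 9 genes were under the minimum. GALNT4 was nearest to it, at a mean of 0.274 RPKM, and the nearest gene above it was GALNT18 at 0.594 RPKM. B3GNT6, the core 3 synthase, reached at most 0.515 RPKM in any library and GCNT1, a core 2 branching enzyme, at most 0.368 RPKM. GCNT3, which makes core 2 and core 4, was instead at 15.1 ± 4.47 RPKM in control tumors. ST3GAL3, ST6GAL1, CHST5 and GALNT8 had means of at most 0.113 RPKM. B4GALNT2, the Sd(a) synthase, never passed 0.0158 RPKM, and A4GNT, which adds the terminal GlcNAc of gland mucins, was listed at 0 in all 21 libraries.

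**Figure D1:**
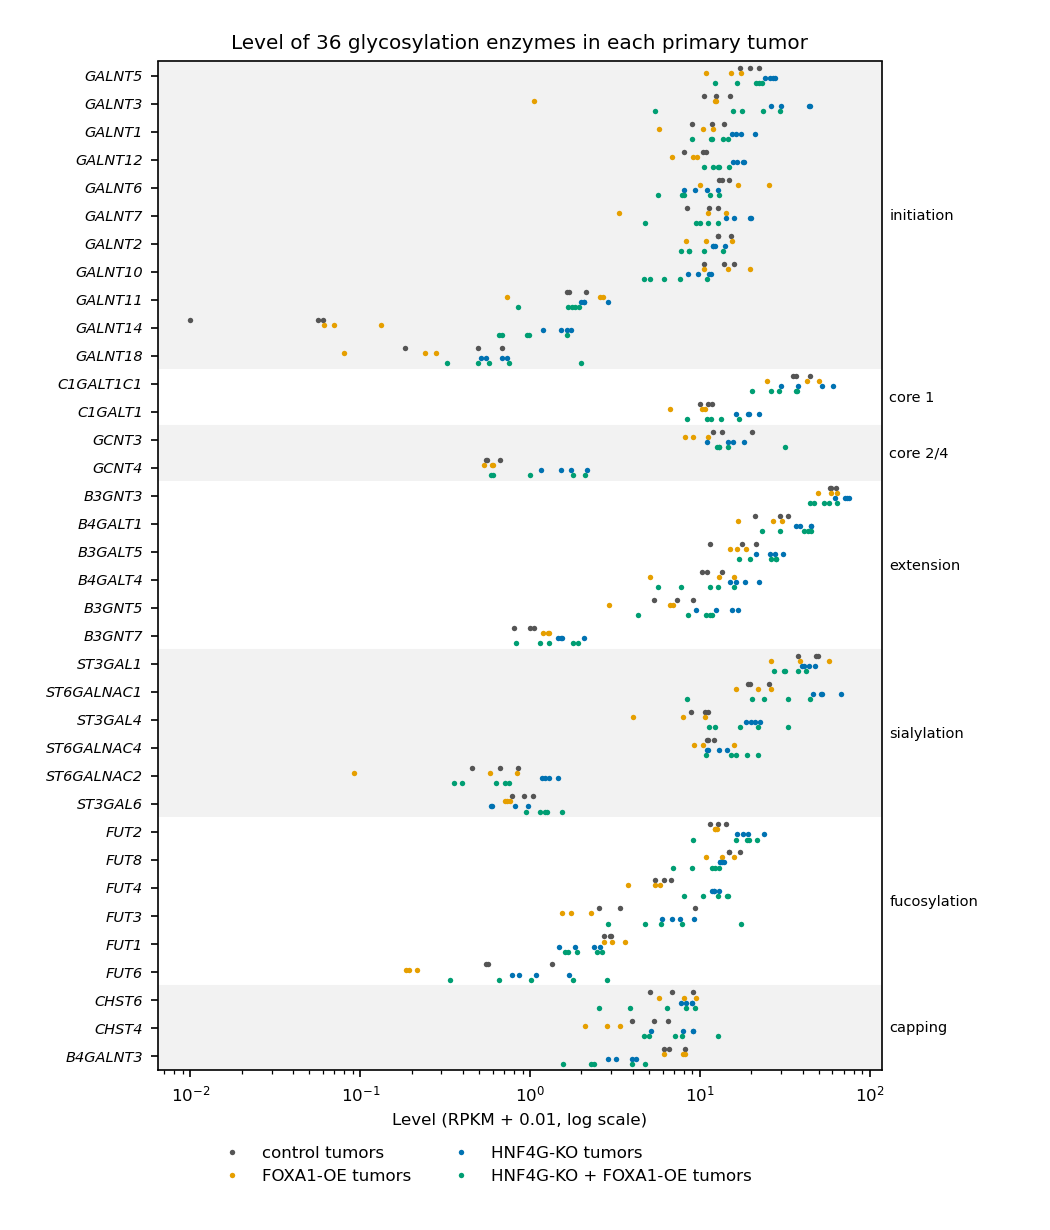
Level of each of the 36 enzymes in the primary tumors, as RPKM with 0.01 added on a log scale. Each point is a tumor, colored by group, and rows are grouped by step of synthesis. GALNT14 is at or under 0.122 RPKM in every control tumor and tumor labeled FOXA1-OE and at or above 0.647 RPKM in every tumor of the other groups.

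Promoter windows from RefSeq (build GRCh38.p14, from 250 bases before to 50 after a start) were found for 29 of the 36 enzymes, with 43 windows, and GALNT5, GALNT6, GALNT18, B4GALNT3, ST3GAL1, ST6GALNAC1 and ST6GALNAC2 had no entry. They were searched on both strands for CAAAGTCCA, an HNF4-type motif, and TGTTTAC, a forkhead-type motif, neither of which contains the other. The HNF4-type letters were found in 1 of the 43 windows, that of FUT2, and in 0.384% of 35116 windows in all, and the forkhead-type letters in 1, that of ST3GAL6, and in 3.42% of all windows. The median GC content of the 250 bases before the start was 68.0% over the 43 windows and 58.0% over all. Shown here are the first 160 bases, from -250 to -91, for FUT2, the window with the motif (capitals, read on the opposite strand), and for 4 enzymes described in the comparisons. Positions are FUT2 at chr19:48695721-48695880 (+), FUT4 at chr11:94543671-94543830 (+), GALNT14 (the first of 2 starts) at chr2:31138531-31138690 (-), GALNT12 at chr9:98807420-98807579 (+) and FUT3 at chr19:5851540-5851699 (-). A match is a description of these letters, and none of these windows was measured in the tumors.
FUT2: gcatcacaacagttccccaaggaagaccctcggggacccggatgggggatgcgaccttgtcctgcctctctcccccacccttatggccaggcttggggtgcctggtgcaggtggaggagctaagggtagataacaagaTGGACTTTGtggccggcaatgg
FUT4: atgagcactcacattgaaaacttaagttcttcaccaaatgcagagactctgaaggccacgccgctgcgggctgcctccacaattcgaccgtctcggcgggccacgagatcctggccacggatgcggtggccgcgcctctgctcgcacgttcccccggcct
GALNT14: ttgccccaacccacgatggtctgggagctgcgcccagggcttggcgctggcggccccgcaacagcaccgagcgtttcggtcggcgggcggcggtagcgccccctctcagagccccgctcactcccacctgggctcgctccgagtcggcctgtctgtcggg
GALNT12: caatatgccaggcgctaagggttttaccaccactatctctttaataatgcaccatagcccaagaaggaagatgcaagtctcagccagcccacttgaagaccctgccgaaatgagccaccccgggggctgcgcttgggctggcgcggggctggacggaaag
FUT3: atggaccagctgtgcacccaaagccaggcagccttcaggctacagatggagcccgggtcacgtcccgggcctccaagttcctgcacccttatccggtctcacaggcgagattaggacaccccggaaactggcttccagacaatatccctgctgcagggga

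Tumors labeled HNF4G-KO were first compared with control tumors. In this comparison 7 of the 36 enzymes changed, where 9.33% of all 19900 genes did (limma on log2(RPKM + 1), Benjamini-Hochberg adjusted p under 0.05). The 6 that rose, against 4.96% of all genes, were GALNT12 and GALNT14 (initiation), C1GALT1 (core 1), GCNT4 (core 2 branching), ST6GALNAC1 (sialyl-Tn) and FUT4 (fucose on Lewis x type chains). The 1 that fell, against 4.37% of all genes, was B4GALNT3, which makes LacdiNAc, a GalNAc cap on GlcNAc. GALNT14 was at most at 0.122 RPKM in control tumors and tumors labeled FOXA1-OE. It passed the minimum of 0.3 RPKM only through the libraries labeled HNF4G-KO, with or without FOXA1-OE. A rise was therefore partly built into its place in the count of those that rose. The log2 fold change was positive for 27 of the 36, with a median of 0.45, while the median over all genes was near 0 and 49.7% of them were positive. Libraries of both groups did not overlap for 22 of the 36 enzymes, of which 18 were higher and 4 lower with HNF4G-KO, and for 41.1% of all genes.

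ST6GALNAC1 (chr17:76624761-76643786, minus strand, GRCh38) was at 25.3, 19.0 and 19.6 RPKM in control tumors and at 67.6, 51.8, 51.6 and 46.2 RPKM in tumors labeled HNF4G-KO. The lowest of the latter was well above the highest control tumor. The means were 21.3 ± 3.46 (SD, n = 3) and 54.3 ± 9.26 RPKM (n = 4), with a log2 fold change of 1.31 (standard error, SE, 0.21, limma adjusted p = 0.00411).

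GALNT14 (chr2:30910467-31155202, minus strand) was near the limit of detection in control tumors, at 0.0462, 0.0499 and 0 RPKM, which correspond to at most 11 reads in a library if the finer step is 1 read. In tumors labeled HNF4G-KO it was at 1.5, 1.73, 1.64 and 1.18 RPKM, or 329 to 442 reads on the same basis. Reads were worked out from this depth and the annotated exon length, and would be fewer by a factor of 2 if the more common step is 1 read. The groups were far apart, with a log2 fold change of 1.28 (SE 0.15, adjusted p = 0.000606) on a scale that understates the change of a gene this low. With a pseudocount of 0.1 RPKM in place of 1 the log2 fold change was 3.62.

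FUT4 (chr11:94543921-94549895, plus strand), the fucosyltransferase of Lewis x type chains, was at 6.73, 6.11 and 5.40 RPKM in control tumors and at 12.0, 11.6, 12.0 and 12.9 RPKM in tumors labeled HNF4G-KO. The groups did not overlap, and the tumors labeled HNF4G-KO lay close together at 12.1 ± 0.542 RPKM (SD, n = 4). The log2 fold change was 0.90 (SE 0.19, adjusted p = 0.0146). FUT4 lies within the body of PIWIL4 on the same strand, so that reads of that gene could be counted for it.

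GALNT12 (chr9:98807670-98850081, plus strand) was at 10.8, 10.3 and 8.07 RPKM in control tumors and at 18.2, 17.7, 16.4 and 15.5 RPKM in tumors labeled HNF4G-KO (log2 fold change 0.75, SE 0.15, adjusted p = 0.0123). C1GALT1 (chr7:7156934-7248616, plus strand), the core 1 synthase, was at 11.7, 11 and 9.97 RPKM against 19.1, 22.2, 19.3 and 16.2 RPKM (0.76, SE 0.19, adjusted p = 0.0283). Neither enzyme had a control tumor as high as the lowest tumor labeled HNF4G-KO. Its chaperone C1GALT1C1, in contrast, overlapped, at 35.2, 36.4 and 44.5 RPKM against 37.7, 60.6, 51.9 and 30.1 RPKM, with an adjusted p of 0.735.

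GCNT4 (chr5:75025346-75052558, minus strand) was at 0.655, 0.549 and 0.540 RPKM in control tumors and at 1.73, 1.52, 2.15 and 1.15 RPKM in tumors labeled HNF4G-KO (0.72, SE 0.19, adjusted p = 0.0335). GCNT3, with a similar reaction and a higher level, was at 13.4, 11.8 and 20.2 RPKM against 18.2, 14.6, 11 and 15.5 RPKM, and its adjusted p was 0.984. So within the branching step the gene of low level changed and the gene of high level overlapped. B4GALNT3 (chr12:459939-563509, plus strand) was at 6.52, 6.10 and 8.08 RPKM in control tumors and at 3.97, 3.19, 2.85 and 4.17 RPKM in tumors labeled HNF4G-KO (-0.80, SE 0.22, adjusted p = 0.0414). Every tumor labeled HNF4G-KO was lower than every control tumor.

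GALNT3, an initiating enzyme, did not pass. It was at 15, 12.3 and 10.5 RPKM in control tumors and at 30.03, 43.6, 44 and 26.0 RPKM in tumors labeled HNF4G-KO, and its log2 fold change was 1.42 with an SE of 0.59 and an adjusted p of 0.141. These libraries did not overlap. The spread that the fit uses is shared over 4 groups, and tumor 3 labeled FOXA1-OE had GALNT3 at 1.04 RPKM, where tumors 1 and 2 were at 12.4 and 12.3 RPKM. When this tumor was left out, 14 of the 36 enzymes were called in place of 7, GALNT3 among them. ST3GAL4 (chr11:126355640-126440344, plus strand), a sialyltransferase of sialyl Lewis x, was at 10.7, 8.82 and 11.1 RPKM in control tumors and at 22.4, 21.1, 18.6 and 19.8 RPKM in tumors labeled HNF4G-KO, with an adjusted p of 0.0834.

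All 6 extension enzymes had a positive log2 fold change between 0.23 and 0.81 and none passed. B3GALT5, which makes the type 1 chain on which sialyl Lewis a is built, was at 21.2, 17.5 and 11.4 RPKM in control tumors and at 25.9, 21.3, 27.7 and 30.7 RPKM in tumors labeled HNF4G-KO (0.66, SE 0.20, adjusted p = 0.0581). B3GNT3 was at 58.1, 58.5 and 63.1 RPKM against 75.1, 62.2, 70.8 and 73.2 RPKM (adjusted p = 0.369). The groups did not overlap for B3GALT5 and overlapped for B3GNT3. FUT2 was at 14.2, 11.4 and 12.8 RPKM against 23.7, 16.5, 17.9 and 19.0 RPKM (0.54, adjusted p = 0.0596). FUT2 was higher in each of the tumors labeled HNF4G-KO.

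Several enzymes of high level did not pass. GALNT5 was at 22.1, 17.1 and 19.5 RPKM in control tumors and at 27.5, 26.9, 25.9 and 23.9 RPKM in tumors labeled HNF4G-KO (0.40, adjusted p = 0.223). ST3GAL1 was at 48.2, 49.0 and 37.8 RPKM against 40.9, 43.5, 40.0 and 47.4 RPKM (adjusted p = 0.891). The former did not overlap and the latter did. GALNT6 was at 12.9, 13.5 and 14.8 RPKM against 12.7, 8.0, 9.27 and 10.9 RPKM (-0.41, adjusted p = 0.356). FUT8 was at 14.7, 14.7 and 17.1 RPKM against 13.1, 13.4, 13.9 and 13 RPKM (-0.20, adjusted p = 0.525). Each tumor labeled HNF4G-KO was lower than each control tumor for GALNT6 and FUT8.

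FUT3 (chr19:5842888-5851471, minus strand) and FUT6 (chr19:5830408-5839722, minus strand) lie close to FUT5 and are near-identical in part. In transcripts of GENCODE release 44, 13.8% of the 50-base windows of FUT3 and 7.5% of those of FUT6 were found in the other 2 genes, so reads of these genes could be split or lost in counting and their values are less certain. FUT3 was at 9.17, 6.85, 7.60 and 5.92 RPKM and FUT6 at 1.67, 0.845, 1.07 and 0.771 RPKM in tumors labeled HNF4G-KO, and neither passed against control tumors (adjusted p = 0.353 and 0.633). Control tumor 3, with FUT6 at 1.32 RPKM, overlapped these tumors for both genes.

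**Figure D2:**
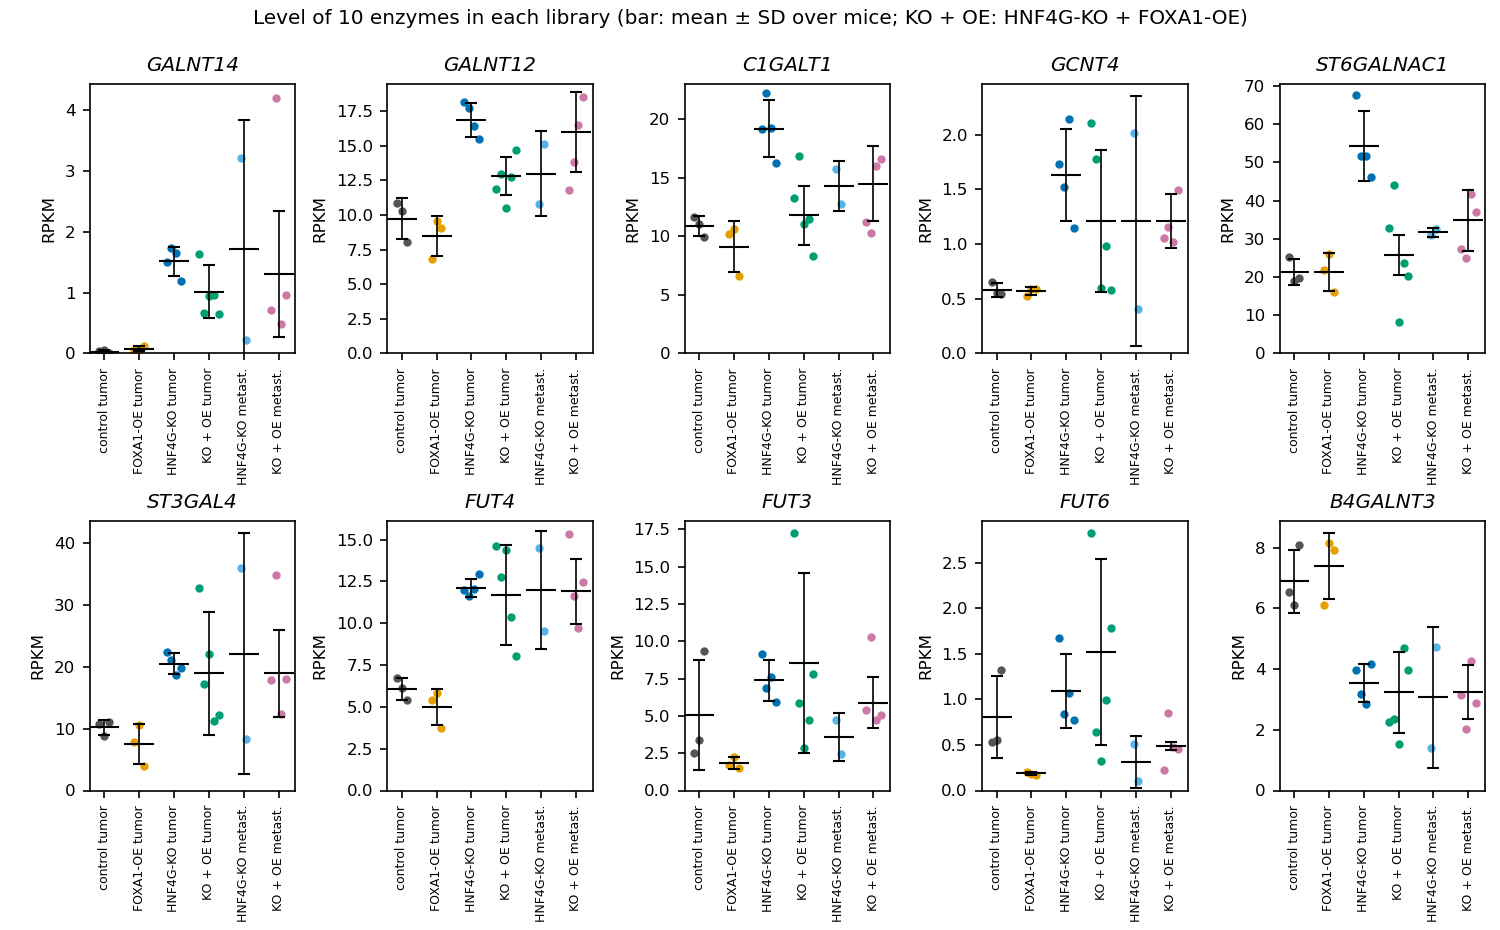
RPKM of 10 enzymes in every library of 6 groups, with points for libraries and a horizontal bar with whiskers for the mean ± SD over mice. KO + OE stands for HNF4G-KO + FOXA1-OE. ST6GALNAC1 lies between 46.2 and 67.6 RPKM in tumors labeled HNF4G-KO, and FUT4 lies at or above 8.07 RPKM in every tumor and metastasis labeled HNF4G-KO with or without FOXA1-OE.

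Lists of host tissue markers did not all move the same way in this comparison. Of the genes tested, 9 of 10 for stroma, with VIM the only one called, and 9 of 9 for pancreas had a negative log2 fold change. The adipose list had 2 of 2 positive, and the blood list had 2 positive and 2 negative. Whether these reads came from mouse or human cells was not tested. The host stroma list (14 genes, whose mouse reads can align to the human genome) summed to 233, 231 and 99.4 RPKM in control tumors and to 65.4 to 89.7 RPKM in tumors labeled HNF4G-KO, with VWF, CDH5 and PECAM1 under 0.1 RPKM in both groups. Control tumor 2 had 543 RPKM of pancreas enzymes and hormones, and the other control tumors 13.1 and 6.06 RPKM. With the stroma list as a covariate 13 enzymes were called, with ST6GALNAC1, GALNT14, FUT4, GALNT12 and C1GALT1 among them and without GCNT4 and B4GALNT3. Without control tumor 2, and likewise without control tumor 3, ST6GALNAC1 and GALNT14 were called and no other. Without control tumor 1 or tumor 1, 2 or 3 labeled HNF4G-KO, these and FUT4 and GALNT12 stood, while C1GALT1, GCNT4 and B4GALNT3 were lost, and without tumor 4 labeled HNF4G-KO B4GALNT3 was lost. In bulk samples, fewer cells of a type and less RNA per cell cannot be told apart. An exact permutation test (two-sided, 3 against 4 mice) cannot give less than 0.0571, the value it gave for each of the 7 enzymes.

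For FOXA1-OE alone, tumors labeled FOXA1-OE were compared with the same control tumors. By limma, 0 of 36 enzymes and 0% of all genes passed, while 1 of the 36 and 1021 of 19900 genes had an unadjusted p under 0.05 (smallest adjusted p 0.237). The median log2 fold change of the enzymes was -0.17 and became -0.02 without tumor 3, which had FOXA1 at the control level. ST6GALNAC1 was at 21.9, 26.1 and 16.1 RPKM, so that tumor 2 was above and tumor 3 below every control tumor (log2 fold change -0.01, SE 0.23). FUT3 was at 1.74, 2.27 and 1.53 RPKM and FUT6 at 0.204, 0.184 and 0.175 RPKM. Both genes were lower in each of these tumors than in each control tumor, with log2 fold changes of -0.94 and -0.58 and an adjusted p of 0.84 for each. CHST4, a sulfotransferase of sialyl Lewis x chains, was at 3.36, 2.83 and 2.10 RPKM against 3.96, 5.32 and 6.42 RPKM (adjusted p = 0.84). Libraries did not overlap for 5 enzymes that were lower and 2 that were higher, and for 9.5% of all genes. The lower were FUT3, FUT6, CHST4, GCNT3 and ST3GAL6, and the higher were GALNT14 and B3GNT7. With 3 against 3 mice an exact permutation test cannot go below 0.1.

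FOXA1-OE on top of HNF4G-KO was read from tumors labeled HNF4G-KO + FOXA1-OE against tumors labeled HNF4G-KO, with 4 mice in each group. Here 1 of 36 enzymes passed, where 0.106% of all genes did. That enzyme was ST6GALNAC1, at 32.8, 44.1, 8.36, 23.8 and 20.3 RPKM with FOXA1-OE against 46.2 to 67.6 RPKM without it. It was lower with FOXA1-OE in every tumor, and these tumors spread around the level of control tumors. The log2 fold change was -1.16 (SE 0.20, limma adjusted p = 0.0494, exact permutation p = 0.0286, which is the smallest possible). The values 44.1 and 8.36 RPKM came from tumors 2 and 3 of the same mouse. The limma call was lost without tumor 3 (-0.87, adjusted p = 0.301) and in each fit that left out a mouse other than that of tumor 1.

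The log2 fold change was negative for 30 of the 36 enzymes, with a median of -0.35, against -0.02 over all genes, of which 47% were positive. Both groups did not overlap for 8 enzymes, each lower with FOXA1-OE, namely GALNT1, GALNT5, GALNT7, GALNT11, GALNT12, ST6GALNAC1, ST6GALNAC2 and FUT8, and for 8.28% of all genes. GALNT3 was at 23.2, 29.3, 17.7, 15.6 and 5.43 RPKM with FOXA1-OE, and C1GALT1 at 13.3, 16.9, 11, 11.5 and 8.36 RPKM. Their log2 fold changes were -1.19 and -0.68, with adjusted p of 0.273 and 0.186. Tumor 5 was lowest of its group for both, as it was for 18 of the 36 enzymes, a count that was not made over all genes. In contrast, FUT4 was at 14.6, 12.8, 14.4, 10.4 and 8.07 RPKM, which overlaps the 11.6 to 12.9 RPKM of tumors labeled HNF4G-KO (log2 fold change -0.09, adjusted p = 0.791). ST3GAL6 was at 1.52, 1.13, 0.930, 1.21 and 1.24 RPKM against 0.581, 0.587, 0.965 and 0.803 RPKM (0.38, adjusted p = 0.211).

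Whether the FOXA1-OE difference depends on HNF4G-KO was tested as a difference of differences. By limma, 0 of 36 enzymes passed, and 0.0352% of all genes, while 2 of the 36 and 1795 of all 19900 genes had an unadjusted p under 0.05. For ST6GALNAC1 the value was -1.15 (SE 0.30, adjusted p = 0.338), and for ST3GAL6 it was 0.52 (SE 0.17, adjusted p = 0.405). The difference in the response of these enzymes was therefore not shown to depend on HNF4G-KO.

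Tumors labeled HNF4G-KO + FOXA1-OE were also compared with control tumors, where 3 of 36 enzymes passed and 3.7% of all genes. GALNT14 was at 1.64, 0.668, 0.943, 0.967 and 0.647 RPKM, each far above the control tumors (log2 fold change 0.94, SE 0.15, adjusted p = 0.00503). FUT4 was higher by 0.81 (SE 0.19, adjusted p = 0.0331) and B4GALNT3, at 2.27, 2.36, 1.55, 4.71 and 3.98 RPKM, was lower with a log2 fold change of -0.95 (SE 0.22, adjusted p = 0.034). These were also called in tumors labeled HNF4G-KO without FOXA1-OE, against the same control tumors. For GALNT14 both calls were favored by the minimum, which it passed only through libraries with the HNF4G-KO label. ST6GALNAC1 gave 0.15 (adjusted p = 0.772), C1GALT1 0.08 (adjusted p = 0.882) and GALNT3 0.22 (adjusted p = 0.89). Without any one of the control tumors, without tumor 1 labeled HNF4G-KO + FOXA1-OE, and without tumors 2 and 3 of that label, GALNT14 alone was called.

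The remaining comparison of primary tumors asks for HNF4G-KO in the presence of FOXA1-OE. Between tumors labeled HNF4G-KO + FOXA1-OE and those labeled FOXA1-OE, 9 of 36 enzymes changed, where 6.77% of all genes did. The 7 that rose, against 2.96% of all genes, were GALNT12, GALNT14, ST3GAL4, FUT3, FUT4, FUT6 and CHST4. The 2 that fell, against 3.8% of all genes, were GALNT10 and B4GALNT3. As above, GALNT14 passed the minimum only through libraries with the HNF4G-KO label, so its rise was partly built in here too. Libraries did not overlap for 12 enzymes, 10 higher and 2 lower, and for 12.2% of all genes. The median log2 fold change was 0.35, and 0.15 without tumor 3 labeled FOXA1-OE.

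FUT3, the Lewis enzyme, was at 17.3, 5.85, 2.84, 4.74 and 7.81 RPKM in tumors labeled HNF4G-KO + FOXA1-OE, against 1.74, 2.27 and 1.53 RPKM with FOXA1-OE alone (log2 fold change 1.55, SE 0.41, adjusted p = 0.0373). FUT6 was at 2.82, 0.647, 0.326, 0.996 and 1.78 RPKM against 0.204, 0.184 and 0.175 RPKM (0.99, SE 0.27, adjusted p = 0.0421). The groups did not overlap for either gene, and tumor 1 was highest and tumor 3 lowest for both. ST3GAL4 was at 32.7, 17.2, 22.0, 11.2 and 12.1 RPKM against 7.89, 10.6 and 4.04 RPKM (1.18, SE 0.33, adjusted p = 0.0453). CHST4 was at 12.7, 7.10, 7.83, 4.96 and 4.64 RPKM against 3.36, 2.83 and 2.10 RPKM (1.08, SE 0.29, adjusted p = 0.0386). These calls rested in part on single tumors. Without tumor 1 labeled HNF4G-KO + FOXA1-OE the calls were FUT4, GALNT14 and B4GALNT3, and without tumor 3 labeled FOXA1-OE they were these 3 and ST6GALNAC4. Without tumors 2 and 3 labeled HNF4G-KO + FOXA1-OE they were FUT3, FUT4, FUT6, GALNT14 and B4GALNT3, and leaving out other tumors gave 5 to 8 calls.

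FUT4, GALNT14 and B4GALNT3 were called with either of these single tumors left out. FUT4 was at 5.40, 5.80 and 3.75 RPKM with FOXA1-OE alone, below every tumor labeled HNF4G-KO + FOXA1-OE (1.07, SE 0.19, adjusted p = 0.0053). GALNT14 was at 0.0599, 0.0513 and 0.122 RPKM with FOXA1-OE alone (0.88, SE 0.15, adjusted p = 0.00392). B4GALNT3 was at 6.13, 8.14 and 7.92 RPKM with FOXA1-OE alone and at most at 4.71 RPKM with both (-1.04, SE 0.22, adjusted p = 0.0144). GALNT10 was at 10.5, 19.5 and 14.6 RPKM against 4.65, 7.62, 5.06, 10.9 and 6.12 RPKM, and these libraries overlapped (-1.01, SE 0.25, adjusted p = 0.0303). GALNT12 had a log2 fold change of 0.54 (SE 0.15, adjusted p = 0.0482). In a fit of only these 2 groups, 0 of the 36 enzymes were called by limma.

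**Figure D3:**
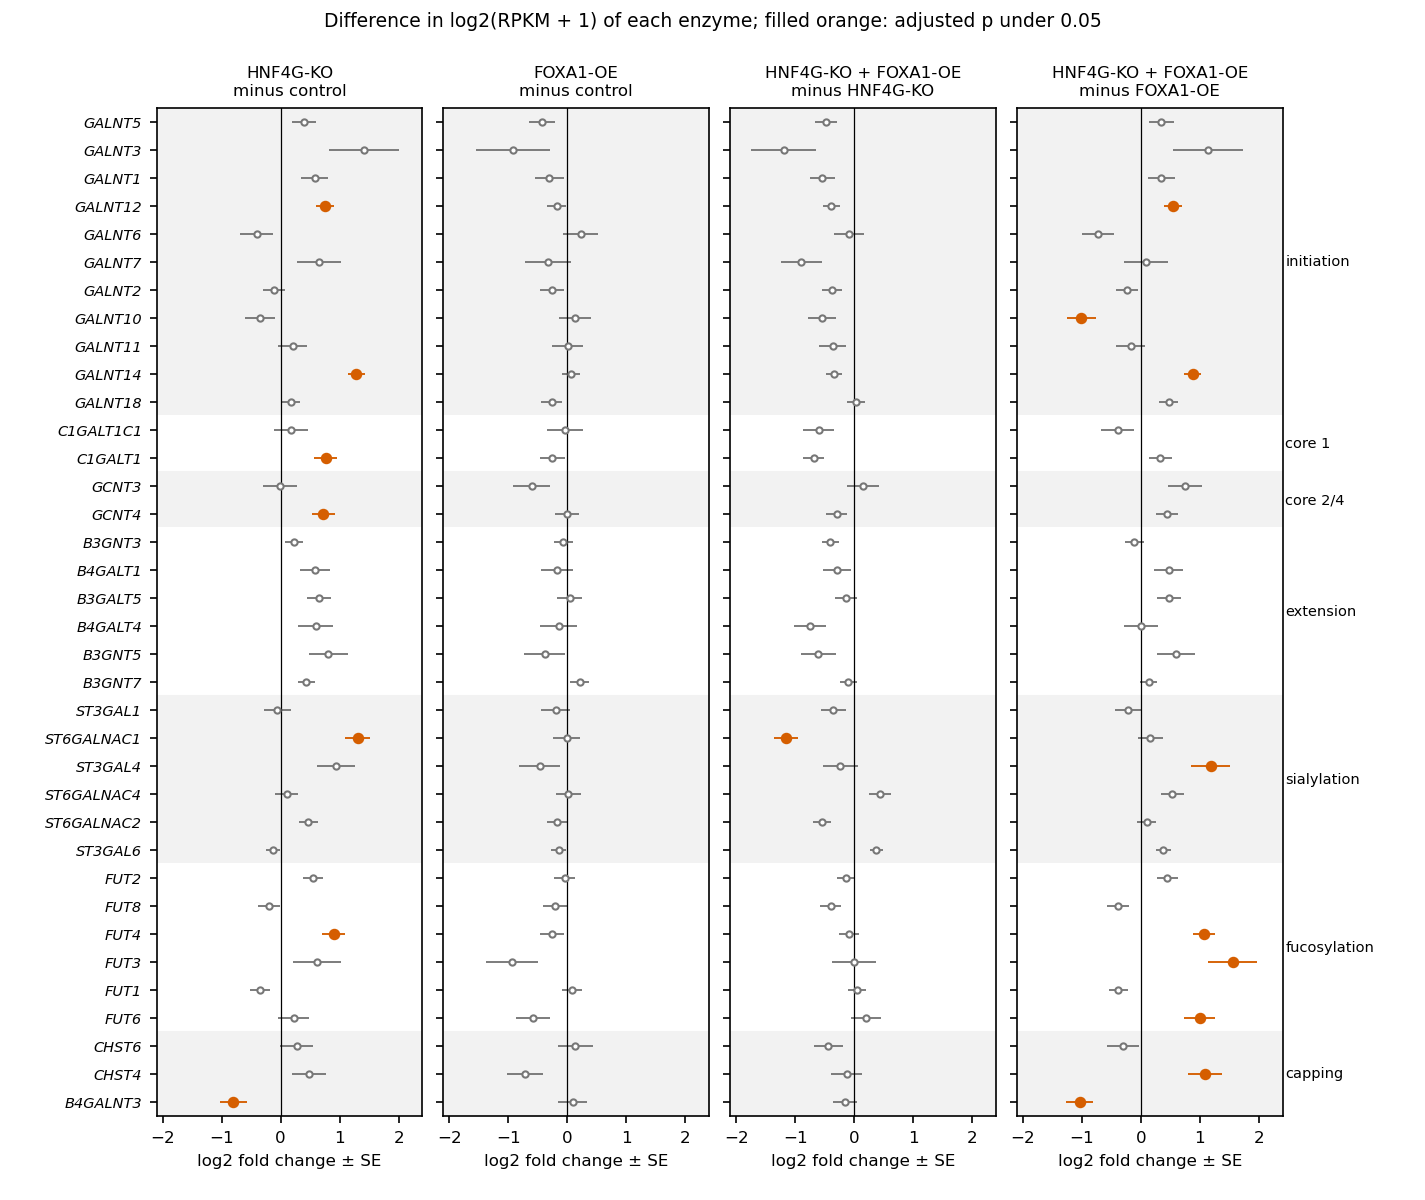
Difference in log2(RPKM + 1) of each enzyme in 4 comparisons of primary tumors, with whiskers for the standard error of the limma fit. Filled orange points have an adjusted p under 0.05. There are 7 such points for HNF4G-KO against control, 0 for FOXA1-OE against control, 1 where FOXA1-OE was added to HNF4G-KO and 9 where HNF4G-KO was added to FOXA1-OE.

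Metastases were compared with primary tumors of the same label, after averaging metastases that shared a mouse. In 4 mice a tumor and a metastasis came from the same animal, and these fits did not pair them. For HNF4G-KO (2 mice against 4), 0 of 36 enzymes and 0% of all genes passed limma, and 8 of the 36 had an unadjusted p under 0.05, as did 2582 of all genes. The median log2 fold change was -0.28 with 29 of 36 negative, while the median over all genes was -0.07 and 40.8% of them were positive. The peritoneal metastases differed widely from each other. GALNT14 was at 3.21 and 0.225 RPKM, ST3GAL4 at 35.9 and 8.32 RPKM and B4GALNT3 at 1.41 and 4.72 RPKM in metastases 1 and 2. Metastasis 2 held 487 RPKM of the host stroma list and metastasis 1 held 89.5 RPKM. With this list as a covariate 0 enzymes were called and the median log2 fold change was -0.406. The part of host tissue in the values of single metastases was not tested. ST6GALNAC1 was alike in both metastases, at 31.0 and 32.5 RPKM, below the 46.2 to 67.6 RPKM of the tumors (-0.74, SE 0.24, adjusted p = 0.281). Such a lack of overlap was common here, with 13 enzymes lower and 1 higher, and 31.2% of all genes. FUT4 was at 14.5 and 9.51 RPKM, around the level of the tumors (-0.04, adjusted p = 0.959).

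For HNF4G-KO + FOXA1-OE (3 mice against 4), 0 of 36 enzymes passed and 0.0151% of all genes, and 9 of the 36 had an unadjusted p under 0.05, as did 1789 of all 19900 genes. The median log2 fold change was 0.20, with 28 of 36 positive, and 0.01 over all genes, of which 51.9% were positive. GALNT5 was at 20.7 and 30.1 RPKM in the spleen metastasis and the fat metastasis of the mouse of tumor 1, and at 29.9 and 37.5 RPKM in the other metastases (0.70, SE 0.20, adjusted p = 0.452). ST6GALNAC1 was at 27.3, 24.9, 41.7 and 37.0 RPKM (0.52, SE 0.21, adjusted p = 0.534). FUT4 was at 15.3, 11.6, 9.75 and 12.4 RPKM and FUT3 at 5.40, 10.3, 4.75 and 5.05 RPKM, and both overlapped the primary tumors. ST3GAL6 was at 0.373, 0.466, 0.744 and 0.515 RPKM, below every tumor of this label, and did not pass (-0.53, SE 0.13, adjusted p = 0.434). Libraries did not overlap for this 1 enzyme and for 2.46% of all genes. GALNT14 ranged from 0.489 to 4.20 RPKM, the latter in metastasis 2. Pancreas enzymes and hormones of the host summed to at most 0.833 RPKM in all 6 metastases and to between 0.555 and 36.2 RPKM in the primary tumors of both labels, and the stroma list to between 91 and 247 RPKM in these 4 metastases against 65.7 to 141 RPKM in their primary tumors. With the stroma list as a covariate 0 enzymes were called and the median log2 fold change was 0.167. The part of the pancreas genes in the result was not tested.

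**Figure D4:**
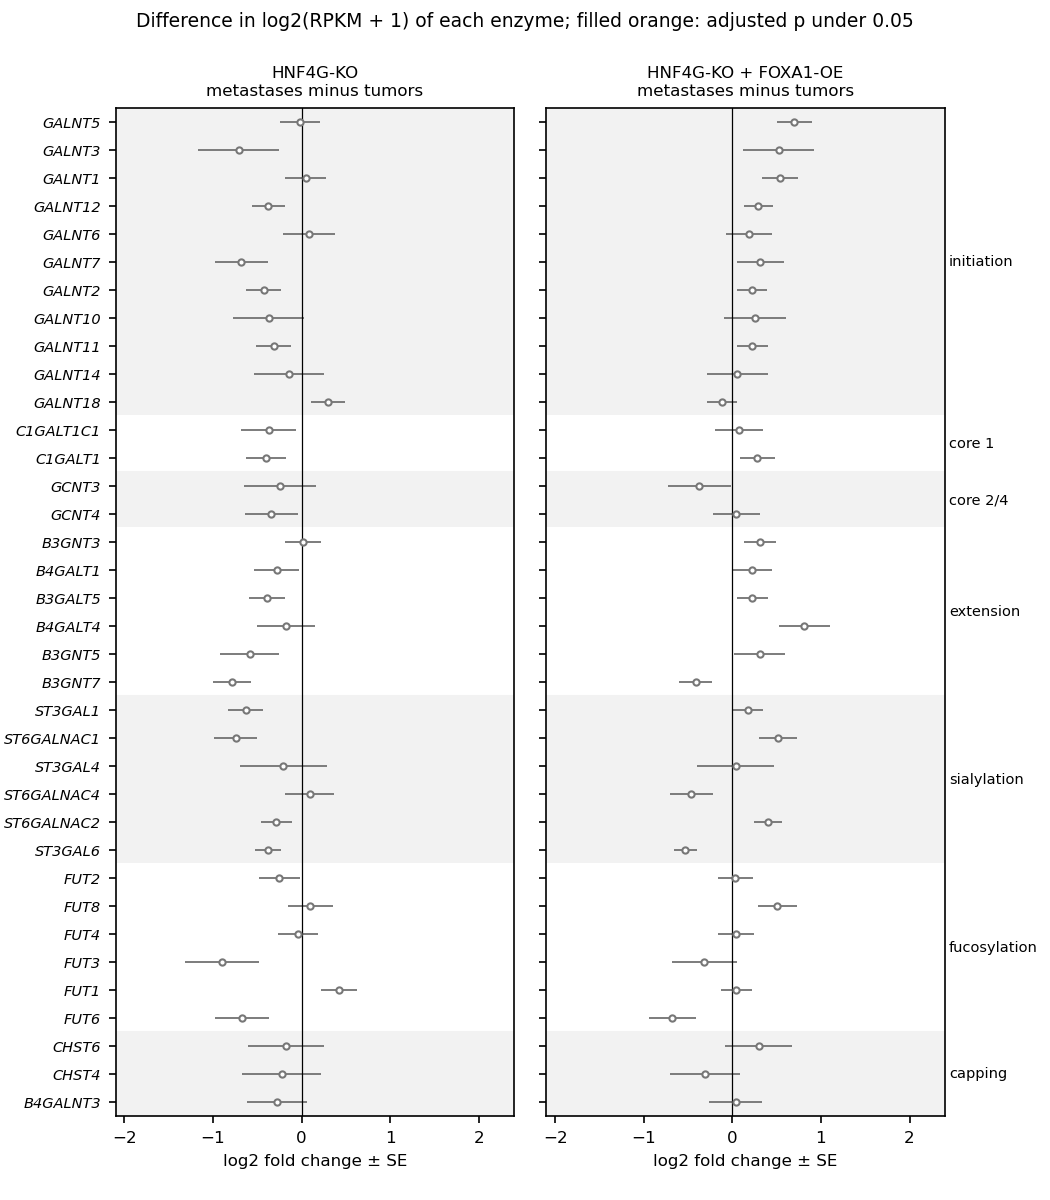
Difference in log2(RPKM + 1) of each enzyme between metastases and primary tumors of the same label, with whiskers for the standard error of the limma fit. No point is filled, since 0 of 36 enzymes passed in either panel. The median is -0.28 for HNF4G-KO and 0.20 for HNF4G-KO + FOXA1-OE.

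Other genes of the pathway were taken from further lists. Among other members of the same enzyme families (21 tested of 42 listed), ST3GAL5, the GM3 ganglioside synthase, and ABO, the blood group transferase, rose in tumors labeled HNF4G-KO against control tumors by 0.83 and 0.93 on the log2 scale (adjusted p = 0.00502 and 0.0108). These are 2 of 21, where 9.33% of all genes were called. In the genes that make and carry sugar nucleotides and the sulfate donor, 1 of 22 changed in this comparison, a smaller share than over all genes, namely PAPSS2, which makes the sulfate donor, with a log2 fold change of -1.25 (adjusted p = 0.0176). PAPSS2 was also lower in tumors labeled HNF4G-KO + FOXA1-OE against control tumors (-1.20, adjusted p = 0.0314) and against tumors labeled FOXA1-OE (-1.01, adjusted p = 0.0451). SLC35C1, the GDP-fucose transporter of the Golgi, rose by 0.84 in the last of these comparisons (adjusted p = 0.0396). Of 8 glycan-degrading enzymes tested, 0 passed limma in any of the 8 comparisons. Of 9 mucins tested, 1 was called in tumors labeled HNF4G-KO against control tumors, where 9.33% of all genes were. This was MUC17, a membrane mucin, which rose (2.37, adjusted p = 0.00129). It also rose, as 1 of 9 against 3.7% of all genes, in tumors labeled HNF4G-KO + FOXA1-OE against control tumors (2.46, adjusted p = 0.00257). Against tumors labeled FOXA1-OE, MUC4 and MUC17 rose in the same tumors (1.02 and 3.18, adjusted p = 0.00958 and 0.000255), 2 of 9 where 6.77% of all genes were called.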

How the data were processed

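RNA from tumors and metastases was sequenced in 21 HPAF-II libraries, which the study's methods describe as stranded mRNA libraries read as 50-base single ends. The authors deposited RPKM values, with no pooling of libraries. The submitters' processing notes name STAR 2.6.1a, featureCounts 2.0.4 and DESeq2 and build hg38, while the methods of the study name GRCh37, so that coordinates printed here are those of GENCODE release 44 (GRCh38), whose models served only for read numbers worked out from RPKM and for windows shared between transcripts. The 6000 lowest RPKM values of each library, times gene length, fell on 2 step sizes, the more common step being 2 of the finer. Of these values 99.8% to 99.9% were whole multiples of the finer step within 0.05 of it. Taking the finer step as 1 read gives the larger depth and read numbers, and taking the common step gives numbers lower by a factor of 2. No test used depth. Intervals from depth would cover counting error only. The 8 libraries of mouse KPC lines in the series were not used here.

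The 19900 genes whose mean over the 21 libraries reached 0.3 RPKM were tested with limma 3.58.1 (R 4.3.3, trended variance) on log2(RPKM + 1), and p-values were adjusted by Benjamini-Hochberg over all of them. Fold changes are on this scale, which understates the change of low genes. Where a mouse gave several tumors or several metastases, their log2 values were averaged. The 4 groups of primary tumors shared 1 fit (3, 3, 4 and 4 mice), and metastases of 2 and 3 mice were fitted with the primary tumors of both HNF4G-KO labels. The comparisons share groups and are not independent of each other. Exact permutation tests over mice were two-sided. The scripts were tested on simulated data. Python 3.11.15 served for tables and plots (matplotlib 3.10.9, scipy 1.17.1, numpy 2.4.6, pandas 2.3.3).

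Enzymes called in any comparison were described in each library, with those chosen for each step called or not, and the others by counts and ranges. The enzymes, lists and rules were chosen with earlier results of these data known. In 4 mice with both a tumor and a metastasis, the correlations of their deviations from the group means were 0.295, -0.0657, 0.209 and 0.249, and these samples pair by animal. Alternatives were another pseudocount, other filters, libraries shifted to the same median, fits of only the groups compared, the host stroma list as a covariate, replicate blocks, tumors of the same mouse kept apart and leaving out each mouse. Leaving out tumor 3 labeled FOXA1-OE from comparisons where it only shares the spread, and tumor 3 labeled HNF4G-KO + FOXA1-OE, was chosen after seeing the data.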

Additional observations from a re-analysis of the deposited data

Results flagged for a closer look

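In the groups of 4 mice, 72 sets of values of the 36 enzymes were searched for a sample far from the others, and 3 had one, where chance gives about 1 in 20. GCNT3, the core 2 and core 4 branching enzyme, was at 31.5 RPKM in tumor 1 labeled HNF4G-KO + FOXA1-OE, while the other mice of the group were at 12.6 to 13.7 RPKM. GALNT11, an initiating enzyme, was at 2.87 RPKM in tumor 2 labeled HNF4G-KO, while the others were at 1.98 to 2.07 RPKM. B3GNT7, an extension enzyme, was at 2.05 RPKM in tumor 3 labeled HNF4G-KO, while the others were at 1.45 to 1.53 RPKM. None of these 3 enzymes was called in any comparison.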

How the results depend on the processing

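Counts are of the 36 enzymes called, by limma. For HNF4G-KO against control tumors the 7 calls became 4 with no RPKM filter, 19 in a fit of only the groups compared, 13 with the host stroma list as a covariate and 14 without tumor 3 labeled FOXA1-OE, which shares only the spread, and leaving out a mouse gave 2 to 6. For HNF4G-KO + FOXA1-OE against HNF4G-KO tumors the 1 call became 0 with a pseudocount of 0.1, with a minimum of 1 RPKM, with no filter, in a fit of only the groups compared, with tumors of the same mouse kept apart, with a replicate block, without tumor 3, and without tumors 2 and 3, it became 2 with the stroma covariate, and leaving out a mouse gave 0 to 1. For HNF4G-KO + FOXA1-OE against control tumors the 3 calls became 1 with no filter, 0 in a fit of only the groups compared and 1 without tumors 2 and 3, and leaving out a mouse gave 1 to 4. Against FOXA1-OE tumors the 9 calls became 3 with no filter, 0 in a fit of only the groups compared and 5 without tumors 2 and 3, and leaving out a mouse gave 3 to 8. The fit with no filter tests more genes, and the fits of fewer groups or mice hold fewer samples. Beyond that the cause was not tested.

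The enzymes called for FOXA1-OE against control tumors, for the difference of differences and for both comparisons of metastases were 0 under every alternative. Of 317 values of called enzymes under alternatives, 208 kept their call, 109 lost it and 0 changed direction. GALNT14 and ST6GALNAC1 kept theirs for HNF4G-KO against control tumors under all 15. GALNT14 was a member only through its level in libraries with the HNF4G-KO label.

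Tumor numbers are shared between groups, and deviations of tumors with the same number correlated between -0.255 and 0.601, so the number does not pair them. With a replicate block for the tumor number, 9 enzymes were called for HNF4G-KO against control tumors, 3 for HNF4G-KO + FOXA1-OE against control tumors and 7 against FOXA1-OE tumors. With a replicate block for the mouse, 0 were called in metastases.

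Over all genes, the 1857 calls for HNF4G-KO against control tumors ranged from 311 to 6150 under the alternatives, and the 0 for FOXA1-OE against control tumors from 0 to 3. Those for HNF4G-KO + FOXA1-OE ranged from 0 to 245 against HNF4G-KO (21 reported), from 0 to 1171 against control (736) and from 35 to 1999 against FOXA1-OE tumors (1347). For the difference of differences (7) they ranged from 0 to 10, and for metastases from 0 to 572 (0) and from 0 to 31 (3). Depth limits GALNT14 in control tumors, where a library held 0 to 11 reads with the finer step taken as 1 read. The number of mice limits the precision of the others.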
